A study of Mus musculus with 6 samples.

Results

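Collagens are the triple-helical proteins of the extracellular matrix, each built from chains of the same or of different genes. Fibrillar collagens assemble into the load-bearing fibres of a scar, network collagens form the sheets of basement membranes, beaded filament collagens link cells to fibres, and the fibril-associated collagens (FACIT) sit on the surface of fibres. After a myocardial infarction, fibroblasts near the lost muscle become activated, begin to express periostin (Postn), and lay down the collagen scar that keeps the ventricle wall from rupturing. The genes described here are all protein-coding genes whose symbol is Col, a number, a and a number, as in Col1a1. There were 44 such genes among 35498 genes in all. The 11 fibrillar members were Col1a1, Col1a2, Col2a1, Col3a1, Col5a1, Col5a2, Col5a3, Col11a1, Col11a2, Col24a1 and Col27a1. The 9 FACIT members were Col9a1, Col9a2, Col9a3, Col12a1, Col14a1, Col16a1, Col19a1, Col20a1 and Col22a1, and the 9 network members Col4a1 to Col4a6, Col8a1, Col8a2 and Col10a1. The 8 beaded filament members were Col6a1 to Col6a6, Col26a1 and Col28a1, and the 4 transmembrane members Col13a1, Col17a1, Col23a1 and Col25a1. Col15a1 and Col18a1 are multiplexins, and Col7a1 forms the anchoring fibril.

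Poly-A RNA was sequenced from the ventricle below the ligature of the left anterior descending artery, 7 days after infarction, in C57BL/6J mice aged 8 to 10 weeks. The Runx1_FB_KO group (n = 3) was labelled Postn CreER+/-; Runx1 fl, and the CTL group (n = 3) Postn CreER+/-; Runx1 WT. Both groups therefore carried the tamoxifen-inducible recombinase driven by periostin, and both were fed tamoxifen from surgery until collection. The design asks how the infarcted heart differs when the transcription factor Runx1 is deleted in periostin-expressing cells. The recombinase acts only in cells that turn Postn on, while the RNA came from whole tissue, so cells without Postn keep an intact Runx1 and contribute to every value. In such bulk samples, fewer cells of a type and less RNA per cell cannot be told apart. Runx1_FB_KO replicate 1 and CTL replicates 2 and 3 were male, and Runx1_FB_KO replicates 2 and 3 and CTL replicate 1 were female.

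The libraries held 16598561 to 19987279 estimated reads. Levels are given in TPM (a level per transcript length, scaled to the same total in each library) where genes are set beside each other, and in CPM (reads scaled to a common library size, with TMM factors that adjust for library composition) where groups are compared. The share of reads from mitochondrial DNA was 24.5%, 19.6% and 10.4% in Runx1_FB_KO replicates 1, 2 and 3, and 5.69%, 7.11% and 5.36% in CTL replicates 1, 2 and 3. The 12 cardiomyocyte markers (Myl3, Tnni3, Ttn and others) summed to 54022, 70422 and 30249 TPM in the Runx1_FB_KO libraries and to 15308, 16567 and 13713 TPM in the CTL libraries. All 12 were above all CTL values in each Runx1_FB_KO library, and none was at 0. Runx1, the targeted gene, was at 17.5, 10.9 and 67.4 CPM in Runx1_FB_KO replicates 1, 2 and 3, and at 96.4, 86.9 and 85.5 CPM in CTL replicates 1, 2 and 3. Its log2 fold change (Runx1_FB_KO over CTL) was -1.48 (SE 0.63) with 6 libraries and -2.61 (SE 0.22) without Runx1_FB_KO replicate 3, with edgeR adjusted p = 0.154 and 0.000142. Runx1_FB_KO replicate 3 thus kept far more Runx1 RNA than Runx1_FB_KO replicates 1 and 2, and it stood nearer to CTL for most collagens as well. This nearness was not limited to collagens. Over all tested genes its log2 CPM correlated at 0.956, 0.969 and 0.966 with CTL replicates 1, 2 and 3. With Runx1_FB_KO replicates 1 and 2 the correlations were 0.924 and 0.913. The tests below are given with and without replicate 3. Since its collagen values are among the reasons to leave it out, the adjusted p-values without it were obtained after selection on the outcome and are too small by an unknown amount.

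Summed over the family, collagen RNA was low in 2 of the 3 knockout libraries. The 44 genes reached 1947, 1701 and 10466 TPM in Runx1_FB_KO replicates 1, 2 and 3, and 13720, 14278 and 13689 TPM in CTL replicates 1, 2 and 3. That is 0.471% ± 0.499 of all TPM in Runx1_FB_KO and 1.39% ± 0.0331 in CTL (SD, n = 3 each). The CTL libraries were close to each other. Runx1_FB_KO replicates 1 and 2 were far below them, and replicate 3 was below them but nearer to them than to the other knockout libraries. TPM is a share of a fixed total, and the knockout libraries held more cardiomyocyte and mitochondrial RNA. With mitochondrially encoded genes left out, the shares were 0.616% ± 0.593 in Runx1_FB_KO and 1.58% ± 0.0685 in CTL (SD, n = 3 each). The part of cardiomyocyte RNA in the difference was not tested. On the TMM scale the family summed to 11857, 10286 and 36146 CPM in Runx1_FB_KO replicates 1, 2 and 3 and to 41851, 42330 and 40493 CPM in CTL replicates 1, 2 and 3. The order was the same and the gap smaller, with a mean of 19430 ± 14498 CPM in Runx1_FB_KO and 41558 ± 953 CPM in CTL (SD, n = 3 each).

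**Figure D1:**
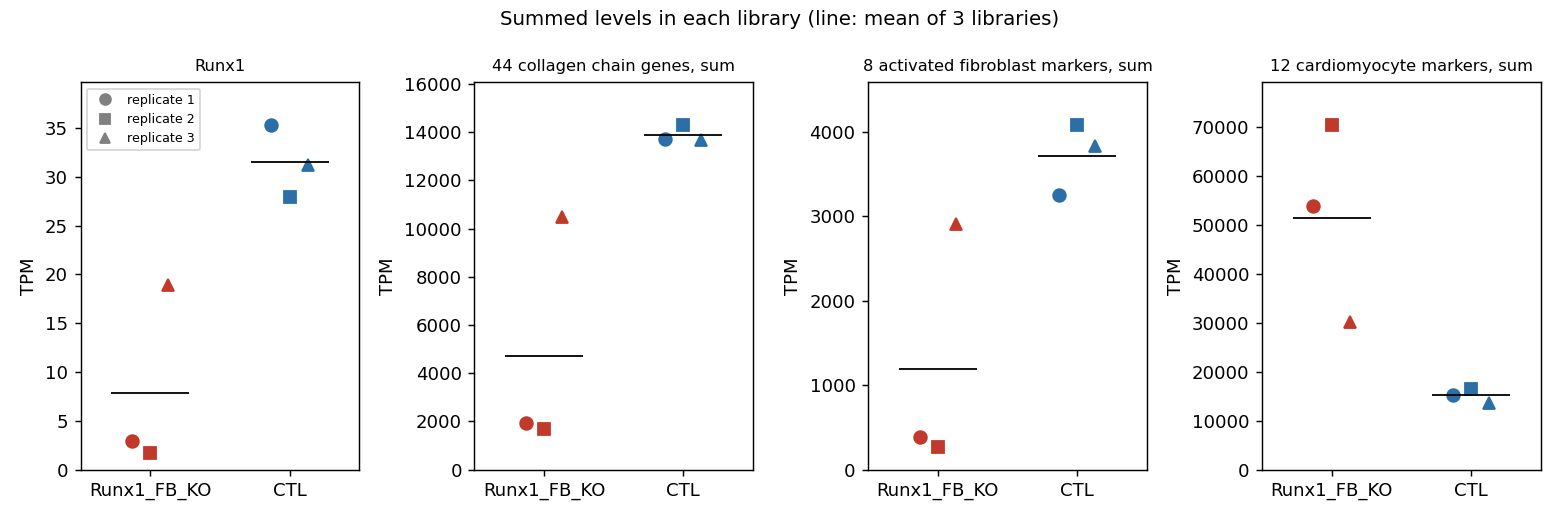
Level in TPM of Runx1 and summed TPM of the 44 collagen chain genes, of 8 activated fibroblast markers and of 12 cardiomyocyte markers; each point is 1 library and each line the mean of 3. Runx1_FB_KO replicates 1 and 2 were lowest for Runx1 (2.90 and 1.71 TPM), collagens and fibroblast markers and highest for cardiomyocyte markers, and replicate 3 lay between them and CTL in all 4 panels.

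The family was dominated by 3 fibrillar chains in both genotypes. Col3a1, Col1a1 and Col1a2 made up 71.0%, 71.9% and 70.0% of all collagen TPM in Runx1_FB_KO replicates 1, 2 and 3, and 75.4%, 73.1% and 71.6% in CTL replicates 1, 2 and 3. Type I collagen, made of 2 chains from Col1a1 and 1 from Col1a2, gives tensile strength, and type III, from Col3a1 alone, makes finer and more compliant fibres. Averaged over the 6 libraries, Col3a1 was at 2804 TPM, Col1a1 at 2091 TPM and Col1a2 at 1857 TPM. Next came Col4a1, at a mean of 216 TPM in Runx1_FB_KO and 470 TPM in CTL, and Col5a2, at 156 TPM in Runx1_FB_KO and 507 TPM in CTL. At the other end, Col17a1, Col25a1, Col6a4, Col9a1 and Col19a1 were too low to test. They had at most 19 reads in any library, and Col19a1 had 1 read over all 6 libraries. By class, fibrillar chains held 76.1%, 77.1% and 77.3% of the family's TPM in Runx1_FB_KO replicates 1, 2 and 3 and 82.5%, 80.2% and 79.0% in CTL. Beaded filament chains held 7.79%, 8.22% and 5.57% in Runx1_FB_KO and 3.98%, 5.21% and 5.37% in CTL. For both classes the 3 knockout libraries lay outside the CTL range, with a smaller fibrillar and a larger beaded filament share. Network chains held 11.1%, 9.52% and 11.2% in Runx1_FB_KO and 8.21%, 8.94% and 10.1% in CTL, and these ranges overlapped.

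**Figure D2:**
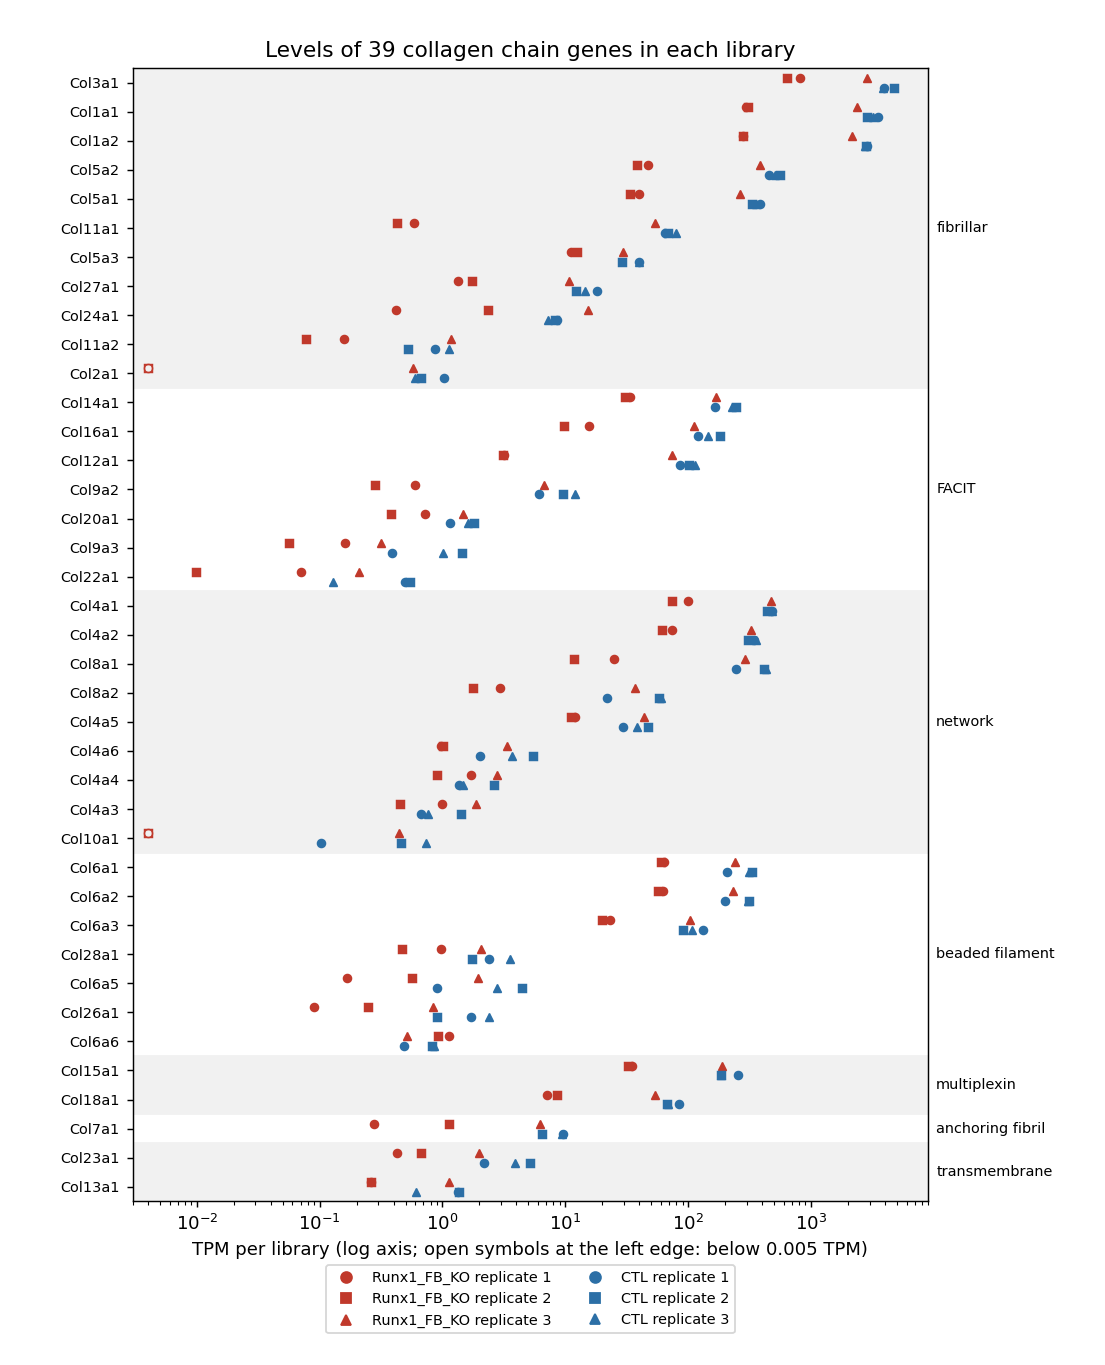
TPM of the 39 tested collagen chain genes in each library, on a log axis, grouped by class and ordered by mean level; Runx1_FB_KO points lie above CTL points in each row. In most rows Runx1_FB_KO replicates 1 and 2 lie to the left of the CTL points while replicate 3 lies close to them. For Col2a1 and Col10a1 the 2 open symbols stand for 0 reads.

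Collagen genes were searched for a sequence feature that the choice by symbol did not use. The miR-29 family, known to repress collagen genes in heart fibroblasts, has 3 mature forms with the same seed (bases 2 to 8, in capitals), shown to allow the sites to be compared with it; the sequences are RefSeq's on GRCm38.p6.
mmu-miR-29a-3p: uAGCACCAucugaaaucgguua
mmu-miR-29b-3p: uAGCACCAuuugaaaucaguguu
mmu-miR-29c-3p: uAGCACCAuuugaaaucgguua
For each gene the most abundant transcript with an annotated 3' untranslated region was used. A 7-base match to this seed was present after its stop codon in 25 of 44 collagen genes (56.8%), with 2 or more matches in 11 of them. Among the tested collagen genes, 23 had a match and 16 did not. Of 13843 tested genes with an annotated 3' untranslated region, 1917 (13.8%) had a match, and the median length of the region was 965 bases in collagens and 962 bases in tested genes. Of the dominant fibrillar chains, Col1a1 and Col3a1 had a match and Col1a2 had none. These windows of 30 bases from GENCODE M21 transcripts hold the first match (capitals) in Col1a1, Col3a1, the network chain Col4a1 and Col11a1.
Col1a1: ggtgggaaggaatttcTGGTGCTatagaag
Col3a1: cttcaaaatgtctcaaTGGTGCTataataa
Col4a1: tgccaccgtcacaacaTGGTGCTactcccc
Col11a1: cctatttggatttcgtTGGTGCTgtagaaa
MicroRNAs were not measured, and a match is a description of these letters and not a shown site.

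Promoters were searched for the motif that RUNX proteins bind and for 3 common core motifs. RefSeq promoters within 2000 bases of the GENCODE start were found for 34 members. Col1a1, Col2a1, Col5a2, Col12a1 and Col14a1 were among those without one. In the 250 bases before the start, on both strands, the RUNX motif (TGTGGT or TGCGGT) was present in 5 of 34 (14.7%), beside 17.8% of 14913 promoters of all genes. The 5 were Col8a1, Col4a2, Col4a4, Col17a1 and Col19a1. With 6 libraries the first 3 had log2 fold changes of -1.43, -0.64 and 0.62, and Col17a1 and Col19a1 were too low to test. TATAAA was present in 14.7% of collagen and 10.8% of all promoters, CCAAT in 32.4% of collagen and 35.9% of all, and GGGCGG in 58.8% of collagen and 46.5% of all. Among promoters of tested genes the shares were 17.5% for the RUNX motif, 6.70% for TATAAA, 36.3% for CCAAT and 59.3% for GGGCGG. The 3 promoters below are of the most abundant chain and of 2 genes that were low in Runx1_FB_KO replicates 1 and 2, with each match in capitals. Col3a1 (chr1:45311288-45311537, plus strand) holds a TATAAA, Col11a1 (chr3:114030290-114030539, plus strand) 2 GGGCGG and 1 CCAAT, and Col8a1 (chr16:57754738-57754987, minus strand) 4 GGGCGG and 1 RUNX motif, all on GRCm38.p6 and written 5′ to 3′ on the gene's strand.
Col3a1: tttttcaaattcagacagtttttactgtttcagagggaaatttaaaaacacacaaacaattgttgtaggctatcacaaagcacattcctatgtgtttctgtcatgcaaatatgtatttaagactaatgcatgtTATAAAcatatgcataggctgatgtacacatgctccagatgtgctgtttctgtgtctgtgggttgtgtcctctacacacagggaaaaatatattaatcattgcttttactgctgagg
Col11a1: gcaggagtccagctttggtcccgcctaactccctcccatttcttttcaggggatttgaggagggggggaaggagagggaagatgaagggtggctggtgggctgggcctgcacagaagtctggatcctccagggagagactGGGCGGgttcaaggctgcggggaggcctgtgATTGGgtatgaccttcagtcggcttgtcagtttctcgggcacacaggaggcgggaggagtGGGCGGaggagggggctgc
Col8a1: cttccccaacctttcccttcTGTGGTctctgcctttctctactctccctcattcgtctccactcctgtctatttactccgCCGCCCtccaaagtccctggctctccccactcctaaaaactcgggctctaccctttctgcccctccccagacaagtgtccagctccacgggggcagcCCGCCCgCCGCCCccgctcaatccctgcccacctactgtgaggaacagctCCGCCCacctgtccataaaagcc
A match in these letters is a description of the window and not a binding site.

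No collagen gene passed the test when all 6 libraries were used. Of the 44 genes, 39 passed the filter on low counts. Of these, 6 had fewer than 3 knockout libraries above its cutoff and so passed mainly through CTL, which ties their place among the tested genes to a low knockout level. By edgeR's quasi-likelihood test with Benjamini-Hochberg adjustment over 14237 genes, 0 of 39 had an adjusted p under 0.05, as did 0 of all genes (0%). The smallest adjusted p of a member was 0.111 and the largest 0.812. At an unadjusted p under 0.05, 3 members were lower (Col27a1, Col28a1 and Col23a1) and 0 higher, where 13.1% of all genes were lower at that level and 19.3% higher. The log2 fold change (Runx1_FB_KO over CTL) was negative in 36 and positive in 3 of the 39, with a median of -1.05, where 54% of all tested genes were negative with a median of -0.06. With no filter all 44 were fitted, of which 39 were negative and 5 positive, with a median of -1.02. DESeq2 called 2 members lower at an adjusted p under 0.05, Col3a1 (0.0361) and Col23a1 (0.0370), where it called 5.04% of all genes lower. On the same genes as edgeR it called these 2 again, where 5.9% of all genes were lower. On all genes it gave no adjusted p for 7 of the 44 members (Col8a1, Col8a2 and the 5 that edgeR did not test), and on edgeR's genes Col10a1 had none either. Col8a1 and Col8a2, at a mean of 236 and 30.3 TPM over the 6 libraries, got no unadjusted p on all genes either, while the 5 others did. By limma-voom 0 of 39 were called. At an unadjusted p under 0.05 it had 15 members lower and 0 higher, where 15.8% of all genes were lower and 17.7% higher. For 11 of the 39 tested members all 3 knockout values of log2 CPM lay below all 3 CTL values and for 0 above them. Over all genes the shares were 18.8% and 20.2%. On the TPM scale 15 of the 39 members lay wholly below CTL, where 46.6% of all tested genes did, and 0 lay wholly above it, where 7.2% did, so no direction is read from TPM.

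Without Runx1_FB_KO replicate 3, most collagens were called. With 2 knockout libraries against 3 CTL libraries, 29 of 39 members fell and 1 rose by edgeR at an adjusted p under 0.05, where 22.5% of all genes fell and 25.1% rose (47.6% in all). The median log2 fold change over the 39 was then -1.55, where that of all genes was -0.05. Those that fell were all 11 fibrillar genes, both multiplexins, Col7a1, 5 of 9 network genes, 5 of 7 tested beaded filament genes, 4 of 7 tested FACIT genes and 1 of the 2 tested transmembrane genes. The gene that rose was Col6a6. Leaving out Runx1_FB_KO replicate 1, replicate 2 or any single CTL library gave 0 calls. Col2a1 and Col10a1 had 0 reads in both remaining knockout libraries. Set against a floor of 3 reads over the group they were at least 17.9-fold and 6.94-fold lower there than in CTL, and with these bounds the median stayed at -1.55.

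**Figure D3:**
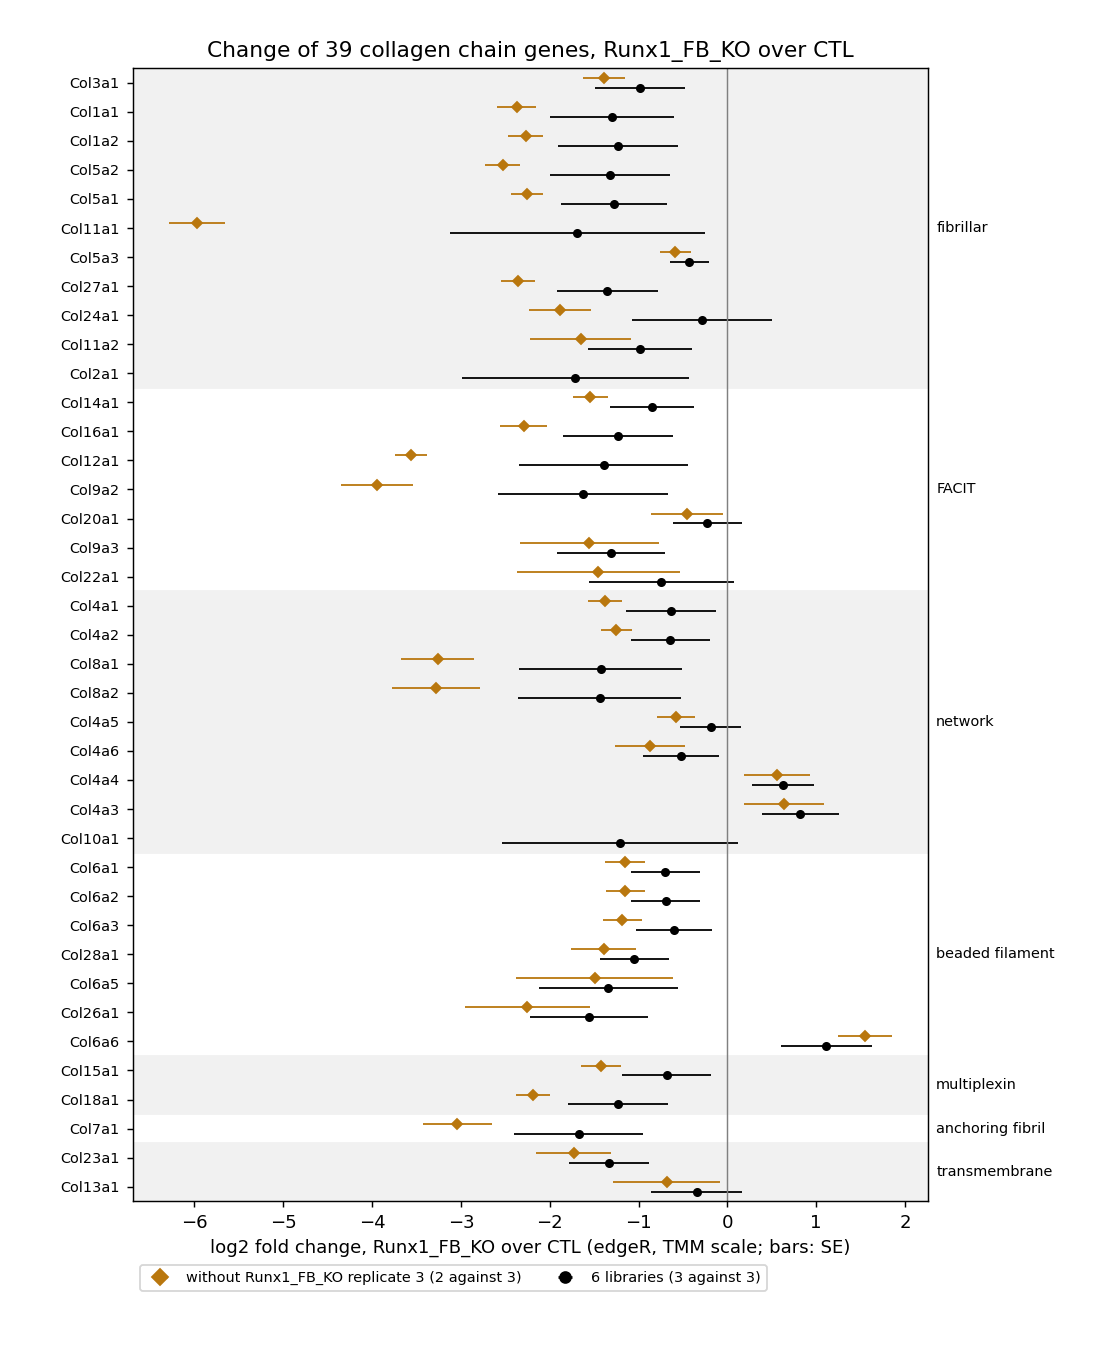
Log2 fold change (Runx1_FB_KO over CTL) with its standard error for the 39 tested genes, with all 6 libraries (black circles) and without Runx1_FB_KO replicate 3 (orange diamonds), grouped by class. The estimates without that library lie farther below 0 for most genes, down to -5.97 for Col11a1; no diamond is drawn for Col2a1 and Col10a1, which had 0 reads in both remaining knockout libraries.

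All 11 fibrillar genes had a negative log2 fold change with 6 libraries, with a median of -1.27, and all 11 fell without Runx1_FB_KO replicate 3. Col1a1 (GRCm38 chromosome 11, 94936224 to 94953042, plus strand) was at 1880, 1959 and 8606 CPM in Runx1_FB_KO replicates 1, 2 and 3 and at 11429, 9203 and 10090 CPM in CTL replicates 1, 2 and 3. All knockout values were below all CTL values, replicate 3 by the smallest margin. It had a log2 fold change of -1.30 (SE 0.70) by edgeR at an adjusted p of 0.224. When Runx1_FB_KO replicate 3 was omitted, the value was -2.37 (SE 0.22) at an adjusted p of 0.000226 by edgeR. Col1a2, singled out here as the partner chain after its values were seen, gave -1.23 (SE 0.67) and, without that library, -2.27 (SE 0.20). Col3a1 (chromosome 1, 45311538 to 45349706, plus strand) was at 4730, 3655 and 8776 CPM in the knockout and at 10932, 12702 and 10319 CPM in CTL. It too separated the groups, with a log2 fold change of -0.98 (SE 0.50, edgeR adjusted p = 0.207). Its value without Runx1_FB_KO replicate 3 was -1.39 (SE 0.23, edgeR adjusted p = 0.00267).

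The less abundant fibrillar chains ranged more widely. Type V collagen nucleates type I fibrils, and its main chain Col5a1 was at 369, 313 and 1403 CPM in Runx1_FB_KO replicates 1, 2 and 3 and at 1811, 1560 and 1662 CPM in CTL. Its log2 fold change by edgeR was -1.27 (SE 0.60, adjusted p = 0.181), and -2.26 without Runx1_FB_KO replicate 3 (edgeR adjusted p = 0.000128). Col5a2 was close to it, at -1.32 with all libraries. Col5a3 had -0.43 (SE 0.22) with all libraries, and -0.59 (edgeR adjusted p = 0.0290) without Runx1_FB_KO replicate 3. Without that library this was the value nearest to 0 in the class, while with all libraries Col24a1, at -0.29, was nearer. Col27a1, known from cartilage, was at 10.0, 7.65 and 36.9 CPM in Runx1_FB_KO and at 54.8, 41.7 and 43.9 CPM in CTL. It had -1.35 (SE 0.57, edgeR adjusted p = 0.153), and -2.36 without Runx1_FB_KO replicate 3.

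Col11a1 differed widely between knockout libraries and was singled out after its values were seen. It encodes a chain of type XI collagen, which shares fibrils with type II collagen in cartilage. There were 79, 33 and 4461 reads in Runx1_FB_KO replicates 1, 2 and 3 and 5430, 5280 and 5701 reads in CTL replicates 1, 2 and 3, or 5.17, 2.58 and 228 CPM in Runx1_FB_KO and 241, 236 and 283 CPM in CTL. Replicates 1 and 2 were nearly without it, and replicate 3 was just under CTL. With 6 libraries the difference was -1.69 on the log2 scale (SE 1.44, edgeR adjusted p = 0.419), and it was -5.97 (SE 0.32, edgeR adjusted p = 6.98e-05) without Runx1_FB_KO replicate 3. Col2a1, the main chain of cartilage collagen, had 0, 0 and 32 reads in the knockout and 58, 37 and 30 reads in CTL. Col24a1 went differently in replicate 3: it was at 3.54, 4.92 and 30.7 CPM in Runx1_FB_KO and at 13.4, 22.7 and 12.03 CPM in CTL, so the highest and lowest libraries were both knockouts. The log2 fold change of Col24a1 was -0.29 (SE 0.79), and when each library was left out in turn it ran from -1.88, without Runx1_FB_KO replicate 3, to 0.16.

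All 7 tested FACIT genes were negative with 6 libraries (median -1.23), and 4 of them fell without Runx1_FB_KO replicate 3. Col14a1, which is found on mature fibrils, was at 183, 157 and 512 CPM in Runx1_FB_KO replicates 1, 2 and 3 and at 415, 594 and 521 CPM in CTL. Col16a1 was at 69.8, 45.7 and 257 CPM in Runx1_FB_KO and at 235, 365 and 275 CPM in CTL. In both, replicate 3 lay inside the CTL range and replicates 1 and 2 below it. Their log2 fold changes were -0.84 (SE 0.47) and -1.23 (SE 0.62), and without Runx1_FB_KO replicate 3 they were -1.54 and -2.29, with edgeR adjusted p = 0.000808 for Col14a1 and 0.000530 for Col16a1. Col12a1, which bridges fibrils under tension, was singled out after its values were seen: 23.6, 25.6 and 291 CPM in Runx1_FB_KO and 256, 326 and 314 CPM in CTL, with -1.39 (SE 0.95) over 6 libraries and -3.56 (SE 0.18, edgeR adjusted p = 6.98e-05) without replicate 3. Of the type IX chains, which coat cartilage fibrils, Col9a2 had 13, 10 and 211 reads in Runx1_FB_KO and 195, 303 and 341 reads in CTL. Col9a3 had 7, 2 and 10 reads in Runx1_FB_KO and 13, 27 and 22 reads in CTL. Its log2 fold change by edgeR was -1.31 (SE 0.61, adjusted p = 0.179). Col20a1 and Col22a1 had -0.22 and -0.75 and overlapped between groups.

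Of the 9 network genes, 7 were negative and 2 positive with 6 libraries (median -0.64), and 5 fell without Runx1_FB_KO replicate 3. Col4a1 and Col4a2 form the type IV network found under endothelium and around every muscle cell. Col4a1 was at 733, 556 and 2026 CPM in Runx1_FB_KO replicates 1, 2 and 3 and at 1787, 1615 and 1750 CPM in CTL. In CPM, replicate 3 was above all CTL libraries while replicates 1 and 2 were below them. In TPM, Col4a1 in replicate 3 (476) lay inside the CTL range (438 to 486). Its log2 fold change by edgeR was -0.64 (SE 0.51, adjusted p = 0.389), and -1.37 (SE 0.19, edgeR adjusted p = 0.00114) without Runx1_FB_KO replicate 3. Col4a2 was at 528, 440 and 1312 CPM in Runx1_FB_KO and at 1220, 1083 and 1256 CPM in CTL, with -0.64 (SE 0.44), and -1.25 without that library. The 2 genes lie head to head on chromosome 8 with starts 21 bases apart. The type VIII chains Col8a1 and Col8a2, which form hexagonal networks in vessel walls and were singled out after their values were seen, had -1.43 and -1.44, and -3.26 and -3.28 (SE 0.41 and 0.50) without Runx1_FB_KO replicate 3. Col8a1 was at 145, 68.9 and 966 CPM in Runx1_FB_KO and at 720, 1228 and 1225 CPM in CTL.

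Col4a3 and Col4a4, whose protein chains pair in the basement membrane of the kidney glomerulus, did not share that direction. Col4a3 was at 9.89, 4.61 and 10.9 CPM in Runx1_FB_KO replicates 1, 2 and 3 and at 3.42, 7.23 and 3.73 CPM in CTL. Col4a4 was at 20.2, 10.9 and 19.1 CPM in Runx1_FB_KO and at 8.18, 15.8 and 8.65 CPM in CTL. In both genes Runx1_FB_KO replicate 2 and CTL replicate 2 broke the order of the groups. Their log2 fold changes were 0.82 (SE 0.44, edgeR adjusted p = 0.221) and 0.62 (SE 0.35, edgeR adjusted p = 0.241), and they were not called without Runx1_FB_KO replicate 3 either, at 0.64 and 0.56. The sign was positive under each scaling tried, but with library size alone the values were 0.42 and 0.19. These are also neighbours, on chromosome 1, divergent with starts 72 bases apart, and they ranked the 6 libraries alike except for Runx1_FB_KO replicates 1 and 3, which changed places. On the TPM scale both genes also overlapped between groups, and Col4a4 averaged 1.79 ± 0.949 TPM in Runx1_FB_KO and 1.82 ± 0.691 TPM in CTL (SD, n = 3 each). The X-linked pair Col4a5 and Col4a6, with starts 1309 bases apart, had -0.19 and -0.52 and overlapped between groups.

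Of the 7 tested beaded filament genes, 6 were negative and 1 positive with 6 libraries (median -0.70), and 5 fell and 1 rose without Runx1_FB_KO replicate 3. Type VI collagen forms microfilaments around cells. Col6a1 was at 296, 286 and 646 CPM in Runx1_FB_KO replicates 1, 2 and 3 and at 493, 784 and 717 CPM in CTL, and Col6a2 at 275, 248 and 584 CPM in Runx1_FB_KO and 444, 680 and 664 CPM in CTL. Replicate 3 lay within CTL for both. They had log2 fold changes of -0.70 (SE 0.39, edgeR adjusted p = 0.238) and -0.69 (SE 0.39, edgeR adjusted p = 0.241), and -1.15 each (SE 0.22) without Runx1_FB_KO replicate 3. Col6a3, the third chain, had -0.60 (SE 0.43). The exception was Col6a6 (chromosome 9, 105687809 to 105828160, minus strand), a chain that can replace the third one. It was at 11.98, 10.1 and 3.17 CPM in Runx1_FB_KO and at 2.62, 4.51 and 4.48 CPM in CTL, high in the same 2 libraries in which Col6a1, Col6a2 and Col6a3 were low. Its log2 fold change by edgeR was 1.11 (SE 0.51, adjusted p = 0.175), and 1.55 (SE 0.30, edgeR adjusted p = 0.00488) when Runx1_FB_KO replicate 3 was omitted. The sign was positive under each scaling tried, but with library size alone the value was 0.54. In TPM it was at 1.12, 0.924 and 0.512 in Runx1_FB_KO and at 0.483, 0.829 and 0.853 in CTL. The same 2 libraries held the most cardiomyocyte marker RNA, and its part in this value was not tested.

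Col28a1 and Col26a1, the remaining beaded filament members with small p, were low throughout. Col28a1, which is known from peripheral nerve, was at 2.16, 2.34 and 4.29 CPM in Runx1_FB_KO replicates 1, 2 and 3 and at 5.96, 4.37 and 7.96 CPM in CTL. In CPM the groups did not overlap, and its log2 fold change by edgeR was -1.05 (SE 0.39, adjusted p = 0.128). In TPM they did overlap, with Runx1_FB_KO replicate 3 at 2.06 and CTL replicate 2 at 1.75. With an offset for effective length the edgeR value was -0.54 (adjusted p = 0.422). Schwann cell markers were almost absent, at a sum of 2.96, 1.73 and 6.62 TPM over 6 genes (S100b, Sox10 and others) in Runx1_FB_KO and 7.29, 10.2 and 8.03 TPM in CTL, and their part in this value was not tested. Col26a1 was at 0.262, 0.703 and 1.38 CPM in Runx1_FB_KO and at 2.49, 1.29 and 3.28 CPM in CTL, with -1.56 (SE 0.66, edgeR adjusted p = 0.156). Without Runx1_FB_KO replicate 3 both fell, with -1.39 (edgeR adjusted p = 0.0171) for Col28a1 and -2.25 (edgeR adjusted p = 0.0331) for Col26a1.

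The multiplexins sit at the border of basement membranes, and the C-terminal part of Col18a1 is released as endostatin, an inhibitor of vessel growth. Col18a1 was at 36.7, 47.9 and 169 CPM in Runx1_FB_KO replicates 1, 2 and 3 and at 233, 182 and 182 CPM in CTL, without overlap. It had a log2 fold change of -1.23 (SE 0.56, edgeR adjusted p = 0.174), and -2.19 without Runx1_FB_KO replicate 3. Col15a1 was at 174, 134 and 487 CPM in Runx1_FB_KO and at 535, 381 and 361 CPM in CTL, with replicate 3 inside the CTL range. It had -0.68 (SE 0.50), and -1.43 without that library. Col7a1, the anchoring fibril collagen of skin, was at 1.96, 2.11 and 11.9 CPM in Runx1_FB_KO and at 25.4, 12.7 and 13.7 CPM in CTL. It had -1.67 (SE 0.73, edgeR adjusted p = 0.160), and -3.04 without Runx1_FB_KO replicate 3.

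The transmembrane collagens were rare. Col23a1 was at 2.75, 4.37 and 7.25 CPM in Runx1_FB_KO replicates 1, 2 and 3 and at 7.07, 16.9 and 12.4 CPM in CTL. Only CTL replicate 1 overlapped with the knockout values. Its log2 fold change of -1.33 (SE 0.45) came with the smallest adjusted p of the family, 0.111 by edgeR, and it ran from -1.73 to -1.02 when each library was left out in turn. Col13a1, a component of the neuromuscular junction, was at 0.851, 0.781 and 1.53 CPM in Runx1_FB_KO and at 2.001, 1.16 and 0.895 CPM in CTL, with -0.35 (SE 0.51, edgeR adjusted p = 0.646).

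Ratios between chains were compared within each library, which removes differences in total collagen. The ratio of Col1a1 to Col1a2 in TPM was 1.06, 1.11 and 1.10 in Runx1_FB_KO replicates 1, 2 and 3 and 1.24, 1.02 and 1.14 in CTL. That of Col6a2 to Col6a1 was 0.982, 0.939 and 0.970 in Runx1_FB_KO and 0.966, 0.931 and 0.985 in CTL, and that of Col4a2 to Col4a1 was 0.743, 0.841 and 0.678 in Runx1_FB_KO and 0.701, 0.700 and 0.736 in CTL. In each of these 3 ratios the groups overlapped. Col6a3 to Col6a1 also overlapped, at 0.364, 0.329 and 0.434 in Runx1_FB_KO and at 0.630, 0.272 and 0.345 in CTL. The ratio of type III to type I, as Col3a1 to Col1a1, was 2.77, 2.05 and 1.20 in Runx1_FB_KO and 1.12, 1.65 and 1.21 in CTL. It was highest in the 2 knockout libraries with the least collagen, while replicate 3 was at the CTL level. Col8a1 to Col4a1 was 0.252, 0.160 and 0.607 in Runx1_FB_KO and 0.503, 0.947 and 0.889 in CTL. Col12a1 to Col1a1 was 0.0108, 0.0101 and 0.0313 in Runx1_FB_KO and 0.0242, 0.0356 and 0.0357 in CTL. Both were lowest in those same 2 libraries. Of 10 ratios compared by a two-sided exact permutation test on log2 ratios, Col15a1 to Col18a1 alone separated the groups, at 4.91, 3.82 and 3.51 in Runx1_FB_KO and 3.04, 2.74 and 2.70 in CTL. Its log2 ratio was higher by 0.52 in Runx1_FB_KO, with exact p = 0.1, the smallest that 3 against 3 allows, and 0.667 after Benjamini-Hochberg adjustment over the 10. The difference for Col3a1 to Col1a1 was 0.54 (exact p = 0.3, adjusted 0.750). It was 0.26 without Runx1_FB_KO replicate 1 and 0.86 without replicate 3. For Col8a1 to Col4a1 and Col12a1 to Col1a1 the differences were -1.37 and -1.06, each with exact permutation p = 0.2 (adjusted 0.667). From estimated reads per effective length of the main transcript they were -1.39 and -0.73.

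**Figure D4:**
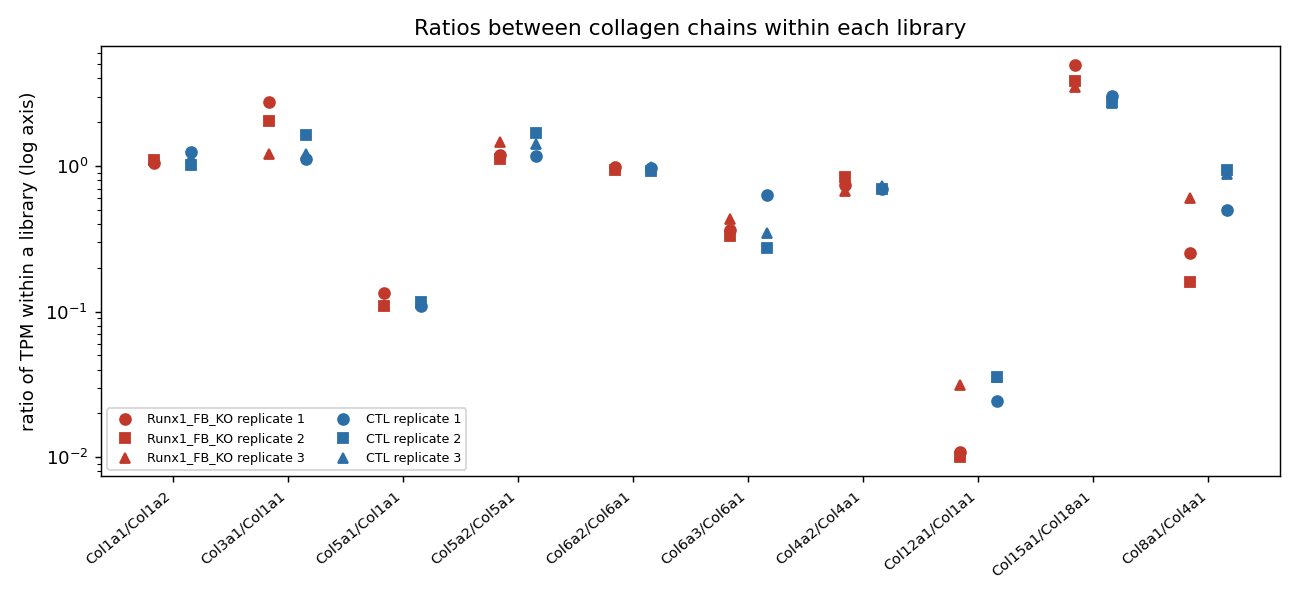
Ratio of the TPM of 2 chain genes within each library, on a log axis, for 10 pairs; Runx1_FB_KO points lie left of CTL points. Pairs within type I, type V, type VI and type IV overlap between groups, Col12a1/Col1a1 and Col8a1/Col4a1 are lowest in Runx1_FB_KO replicates 1 and 2, and Col15a1/Col18a1 is above CTL in all 3 knockout libraries.

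Collagens with and without a miR-29 seed match were set beside each other. The median log2 fold change was -0.75 in the 23 tested members with a match and -1.22 in the 16 without it, and -1.45 and -1.60 without Runx1_FB_KO replicate 3. Col4a3, Col5a1 and Col26a1 had 4 matches each and were at 0.82, -1.27 and -1.56. Among members with no match, Col12a1 and Col8a2 were at -1.39 and -1.44, Col20a1 at -0.22 and Col6a6 at 1.11.

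Collagens were also set against markers of the cells that make them. The 8 activated fibroblast markers, such as Postn, Fap and Thbs2, summed to 391, 263 and 2913 TPM in Runx1_FB_KO replicates 1, 2 and 3 and to 3253, 4076 and 3826 TPM in CTL. None was at 0 in all libraries. Family TPM per TPM of these markers was 4.98, 6.48 and 3.59 in Runx1_FB_KO and 4.22, 3.50 and 3.58 in CTL. By this measure replicates 1 and 2 were above every CTL library and replicate 3 was within the CTL range. Against 8 resting fibroblast markers (Pdgfra, Mfap5 and others), whose sum was 851, 857 and 1864 TPM in Runx1_FB_KO and 1642, 2837 and 2329 TPM in CTL, the family stood at 2.29, 1.99 and 5.62 in Runx1_FB_KO and at 8.36, 5.03 and 5.88 in CTL. On this measure replicates 1 and 2 were below every CTL library and replicate 3 was within the CTL range. On the TMM scale the median log2 fold change was -1.20 for activated and -0.41 for resting fibroblast markers, beside -1.05 for collagens. Without Runx1_FB_KO replicate 3 these medians were -2.29 for activated markers, -0.43 for resting markers and -1.55 for collagens. Pdgfra, a receptor on resting and activated fibroblasts, was at 105 ± 6.24 CPM in Runx1_FB_KO and 150 ± 9.30 CPM in CTL (SD, n = 3 each). All 8 activated and 7 of 8 resting fibroblast markers were negative. For the 8 endothelial markers the median was -0.07, with 6 negative. Kdr and Fabp4, which had the smallest p, were the positive ones, at 1.41 and 0.53. For the 8 mural markers the median was -0.25, with 5 negative. Of these, Abcc9 and Notch3 had the smallest p, at 2.17 and -0.62. For the 8 macrophage markers (Csf1r, C1qc) the median was -0.98, with all 8 negative, and -1.51 without Runx1_FB_KO replicate 3. For the 6 mesothelial markers (Wt1, Lrrn4) the median with 6 libraries was -0.25, with 4 negative. The part of these cell types in the collagen values was not tested.

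Most genes that process collagen also had negative log2 fold changes. None of the following lists had a member past the threshold with 6 libraries, where 0% of all genes passed. Without Runx1_FB_KO replicate 3, 22.5% of all genes fell and 25.1% rose, which is the background for the counts without that library given here. Of 20 genes for hydroxylation, folding and export of collagen, 18 had a negative log2 fold change (median -0.69), and without Runx1_FB_KO replicate 3, 15 fell and 1 rose. Ppib, a proline isomerase that helps the triple helix fold, was at 133 ± 60.1 CPM in Runx1_FB_KO and 266 ± 24.5 CPM in CTL, while Colgalt2, which adds galactose to hydroxylysine, was at 10.7 ± 5.08 CPM in Runx1_FB_KO and 4.59 ± 0.539 CPM in CTL (SD, n = 3 each). Of 12 genes for procollagen cleavage and crosslinking, 11 were negative (median -0.95), and 9 fell without that library. Bmp1, which cuts off the C-terminal propeptide, was at 196 ± 123 CPM in Runx1_FB_KO and 412 ± 7.33 CPM in CTL, and the crosslinking oxidase Loxl1 at 278 ± 200 CPM in Runx1_FB_KO and 623 ± 80.6 CPM in CTL. Of 6 degradation genes 5 were negative, with a median of -0.95, and 2 fell without that library, a share near the background. The lysosomal collagenase Ctsk was at 40.9 ± 22.1 CPM in Runx1_FB_KO and 95.8 ± 10.1 CPM in CTL, and Mmp9 at 2.35 ± 1.30 CPM in Runx1_FB_KO and 6.18 ± 4.74 CPM in CTL. Of 10 fibril regulators 9 were negative (median -1.23), and without that library 8 fell and 1 rose. Postn, Dcn and Lum of this list are also fibroblast markers above. Bgn had -1.23 (SE 0.64), while Tnxb, a tenascin of loose connective tissue, had 1.78 (SE 0.70, edgeR adjusted p = 0.139), with Runx1_FB_KO replicate 1 at 11.9 CPM and the other 5 libraries at 0.978 to 3.32 CPM. Of the 11 collagen receptors, 10 were tested and 9 were negative (median -0.60), and without that library 6 fell and 1 rose. The collagen-binding integrin Itga2 was at 2.70 ± 2.11 CPM in Runx1_FB_KO and 7.24 ± 0.560 CPM in CTL. Cd36, a fatty acid carrier of heart muscle as well as a scavenger receptor, was at 1595 ± 857 CPM in Runx1_FB_KO and 436 ± 80.5 CPM in CTL.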

How the data were processed

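Per the submitters' processing notes, the authors used Salmon 1.5.2, DESeq2 1.44.0 and the mm10 (GRCm38) build; no source used here names the transcript release. The authors deposited, for each library, estimated counts, TPM and effective length per transcript. Estimated counts need not be whole, because reads that fit several transcripts are shared out among them. Of 116546 transcripts, 115977 matched GENCODE M21 by identifier, and the 569 others (0.0777% to 0.102% of reads) were not used. Both measures were added up per gene, and the sums of estimated counts were rounded. Genes were kept by filterByExpr (minimum count 10), scaled by TMM (factors 0.732 to 1.21) and compared between genotypes with edgeR 4.0.16 quasi-likelihood tests, adjusted by Benjamini-Hochberg over 14237 genes at a threshold of 0.05. Each SE is the size of the log2 fold change over the root of its F statistic. The fits were tested on simulated counts, with the same gene means in all libraries of a group apart from library size. Those counts held no library that departed from its group as Runx1_FB_KO replicate 3 did. Alternatives were other scalings, no filter, sex as a covariate, a replicate block, DESeq2 1.42.0, limma 3.58.1 and leaving out each library. The labels do not say that the libraries of a group came from separate mice, so p-values measure the spread between these libraries. They do not say whether strand was kept; Col4a1 and Col4a2 overlap by 22 bases.

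The members, their classes and the other lists were chosen with earlier results of these data known. Values in every library are given for the 2 tested members of each class with the highest mean TPM, the 2 with the smallest p, and any member against the direction of its class or not lower without Runx1_FB_KO replicate 3; others were singled out after their values were seen. Of the other lists the 2 members with the smallest p are named.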

Additional observations from a re-analysis of the deposited data

How the results depend on the processing

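The number of collagen genes called rested on the libraries used more than on the settings. With all 6 libraries, 0 collagen genes were called under RLE, upper quartile or library size scaling, without a low-count filter, with sex as a covariate, with a replicate block, by limma-voom, without mitochondrially encoded genes or with an offset for effective length. DESeq2 called 2, both on all genes and, chosen after seeing the data, on the filtered genes. Leaving out 1 library gave 0 to 30 collagen calls and 0 to 6947 calls over all genes, each upper end without Runx1_FB_KO replicate 3. Over all genes the other non-zero counts were 889 without a low-count filter, 2810 with DESeq2 and 2995 with DESeq2 on the filtered genes. The median collagen log2 fold change ran from -1.55 to -0.74 over the omissions and was -1.44 with library size alone, where the median of all genes was -0.52. With an offset for effective length, Col11a2 was at -0.48, Col24a1 at -0.05 and Col22a1 at -1.47, beside -0.98, -0.29 and -0.75 without it. No tested member changed sign under another scaling, covariate or tool, and Col24a1, Col20a1, Col4a5 and Col13a1 did when a library was left out. Deviations of same-numbered libraries correlated at -0.0507, 0.113 and 0.0807, and those of differently numbered ones at -0.174 to 0.128. Within a group of 3 the deviations sum to 0, so these values cannot decide whether the numbers mark pairs. The block left the counts of calls at 0. At an unadjusted p under 0.05 by edgeR, 16 collagen genes passed with the block and 3 without it, beside 4399 and 4619 of all genes. The median collagen log2 fold change was -1.09 with the block, and Col11a1 moved from -1.69 to -4.44. Col11a1 was also at -3.80 by limma-voom and at -3.29 with sex as a covariate, but at -1.67 with RLE scaling and with DESeq2. The size of its estimate with 6 libraries thus depended on the setting. Members with few reads, such as Col9a3 with at most 27 in any library, are limited by depth. Col2a1, at 58, 37 and 30 reads in CTL, also differed between the knockout libraries, at 0, 0 and 32 reads.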
